A study of Drosophila melanogaster with 6 samples.

Results

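Cytosolic ribosomal protein genes were followed in the midgut of virgin and mated Drosophila melanogaster females. Members were all gene symbols that begin with RpL or RpS followed by a number, by P and a number, or by the letter A alone; 92 of the 17116 symbols counted met this rule. Of these, 54 belong to the large and 38 to the small ribosomal subunit. Where a protein has several gene copies, the copy with the highest mean level over all libraries was taken as the main gene, which gave 78 main genes, 11 lower copies and 3 genes (RpL7-like, RpL24-like and RpLP0-like) whose yeast relatives are ribosome assembly factors. The gene stubarista (sta), which encodes the protein RpSA, and Rack1, a further protein of the small subunit, carry other symbols and were not members.

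Each cytosolic ribosome is built from ribosomal RNA and a set of proteins in fixed proportions, most of them present as a single copy. In flies, heterozygous loss of many of these genes causes the Minute phenotype, with slow development and short, thin bristles. Their transcripts are among the most abundant in most tissues, and in animals their translation is regulated as a group through the target of rapamycin (TOR) pathway. Enterocytes of the midgut make large amounts of digestive enzymes and thus depend on a high capacity for protein synthesis.

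All flies were 8-day-old females of w1118, a white-eyed laboratory stock that the labels give as wild type; no transgene or drug is named. Virgin females made up 1 group, and females taken 3 days after mating the other. Each sample was a pool of 30 guts, and there were 3 samples per group. RNA was sequenced after strand-specific mRNA library preparation, and the comparison asked how the gut of females differs after mating.

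Counts in genes per library, in units of 1e6, were 15.9 to 29.0 in virgin and 16.3 to 25.5 in mated samples. The 4 enterocyte marker genes together reached 16232 to 20938 CPM (counts per 1e6 counts in genes, on scaled library sizes) in virgin and 19067 to 26407 CPM in mated libraries. Most of this was the trypsin gene betaTry, at 14115 to 18402 CPM in virgin and 16768 to 23868 CPM in mated libraries. The markers nub (106 to 134 CPM) and Myo31DF (491 to 602 CPM) were expressed in all libraries, so the main absorptive cell of the midgut was represented. A list of 10 germline and egg chamber genes summed to 55.5 CPM in virgin 2 and to between 1.10 and 3.05 CPM in the other libraries. In virgin 2, osk (22.7 CPM) and otu (15.9 CPM) were the highest of the list, while Vm26Aa, Vm34Ca and Cp36 were at 0. All 5 visceral muscle markers were higher in mated samples at an adjusted p below 0.05, with a summed level of 1169 to 1460 CPM in virgin and 2117 to 3221 CPM in mated libraries. Malpighian tubule markers (3 genes) summed to 1.62 to 18.3 CPM in virgin and 22.6 to 59.5 CPM in mated libraries. Of these, Uro alone passed (edgeR adjusted p = 0.0363); Irk3 overlapped between groups, and salm was at 0 in all libraries but virgin 2. The sums overlapped between groups for the markers of fat body (70.1 to 274 against 96.9 to 244 CPM), progenitors (41.2 to 62.8 against 52.8 to 56.6 CPM), enteroendocrine cells (248 to 293 against 247 to 267 CPM) and haemocytes (0.531 to 3.15 against 0.791 to 1.46 CPM). The part of these other transcripts in the results on ribosomal protein genes was not tested. In whole tissue, fewer cells of a type and less RNA per cell cannot be told apart.

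Main ribosomal protein genes were expressed at similar levels. Divided by exon length, the level of the 78 genes had a median of 981 CPM per kb over the 6 libraries and an interquartile range of 796 to 1186 CPM per kb, although the extremes lay 17.1-fold apart. The highest were RpL41, which encodes a very short basic peptide at the interface of the subunits, at 4324 CPM per kb, and RpLP1, an acidic protein of the stalk, at 2304 CPM per kb. RpL39, a protein of the exit tunnel, stood at 1936, RpS27A, which is made as a fusion to ubiquitin, at 1896, and RpL23 at 1853 CPM per kb. The lowest were RpL38 at 253, RpL22 at 287, RpS21 at 405, RpS14a at 445 and RpL24 at 456 CPM per kb. These levels use the union of all annotated exons, so a gene with a long rare isoform is placed too low. So may be RpL22, since 34.3% of its exon bases are shared on the same strand with a long noncoding RNA gene and reads there are assigned to neither.

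Ribosomal protein transcripts were lower in mated midguts as a block, 1.34-fold at the median, but few genes passed the test individually. Of the 92 members, 83 had enough counts to be tested, among them all 78 main genes. In edgeR's quasi-likelihood test with Benjamini-Hochberg adjustment over 8607 genes, 7 fell, 0 rose and 76 did not pass an adjusted p of 0.05. Across all tested genes 1.63% were called lower and 2.47% higher by the same rule. Without adjustment, 71 of the 83 members had p below 0.05 and a lower level in mated samples, and 0 a higher level, against 8.85% of all tested genes called lower. In 52 of the 83 every mated library lay below every virgin library, against 12.3% of all tested genes. The count of members that fell depended on tool and scaling: it was 3 with relative log expression scaling, 32 in DESeq2 and 79 with library size alone. Across all tested genes 1.44%, 2.87% and 8.43% were called lower in these settings.

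All 78 main genes had a negative log2 fold change (mated over virgin), from -0.68 to -0.26. Their median was -0.43, a 1.34-fold lower level, while the median of all tested genes was -0.05. The interquartile range of the log2 fold change was 0.109 over the main genes and 0.482 over all tested genes, and 75 of the 78 lay between -0.6 and -0.3. The SD between main genes was 0.0794 on the log2 scale, and the median standard error of a single gene was 0.147. That error includes movement between libraries that the genes share, so it does not measure how far they differ from each other. The 7 genes that fell sit at or near the low end of a narrow distribution. With the main genes' median subtracted in each library, the SD of a gene over the 6 libraries had a median of 0.0674. The mated libraries then lay below all virgin libraries for 9 main genes and above for 6, and 63 overlapped. Without this centring, 1061 of all 8607 tested genes lay below and 998 above. The counts of 9 and 6 alone thus do not set these genes apart from the block. The mated minus virgin difference was then lowest in RpL41 (-0.25) and RpL27 (-0.22), without overlap, and in RpL5 (-0.16), with overlap. Differences between members were not tested.

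**Figure D1:**
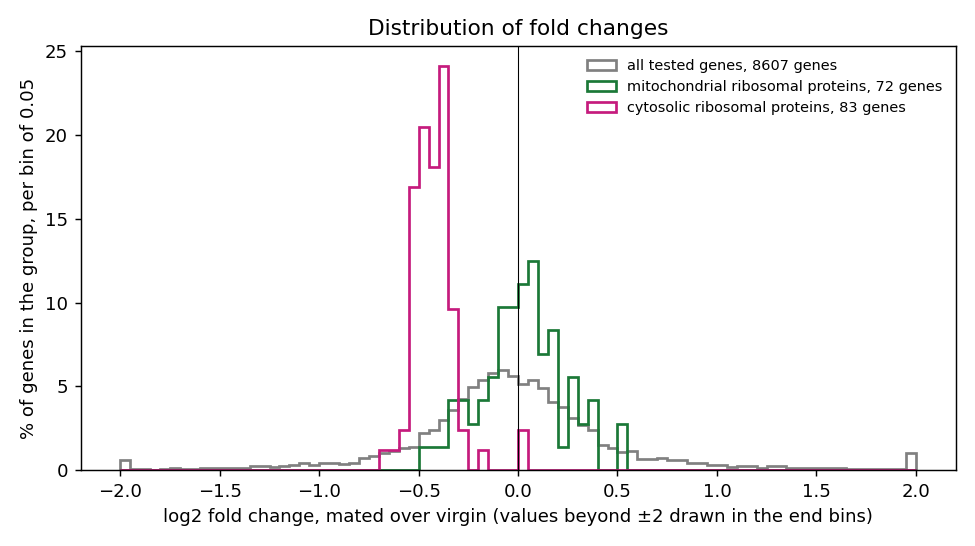
Distribution of log2 fold changes (mated over virgin, x axis) for cytosolic ribosomal protein genes, mitochondrial ribosomal protein genes and all tested genes, as the percentage of genes of each group per bin (y axis). The cytosolic genes form a narrow peak around their median of -0.43, and the mitochondrial genes lie around 0.01.

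RpL41 had the most negative change. On chromosome 2R (24903416 to 24903935, minus strand, dm6), it was at 1678, 1622 and 1810 CPM in virgin 1 to 3 and at 1128, 1002 and 1061 CPM in mated 1 to 3. The groups did not overlap, and virgin 3, the lowest virgin library for most other members, was the highest here. Its mean fell from 1704 ± 96.2 to 1064 ± 63.2 CPM (SD, n = 3 each), a 1.60-fold lower level (log2 fold change -0.68 ± 0.13 SE, edgeR adjusted p = 0.0131).

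RpL27, a large subunit protein, was at 1339, 1313 and 1086 CPM in the virgin and 862, 716 and 806 CPM in the mated libraries. Every mated library was below the virgin ones, and the level was 1.57-fold lower (edgeR adjusted p = 0.0258). RpL5 binds 5S ribosomal RNA together with RpL11 and brings it into the large subunit. Its levels were 2376, 2116 and 2053 CPM in virgin and 1514, 1461 and 1372 CPM in mated libraries, 1.51-fold lower without overlap (edgeR adjusted p = 0.0272).

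RpL21, also of the large subunit, was at 1157, 975 and 981 CPM in virgin and 738, 682 and 703 CPM in mated libraries (1.47-fold lower, edgeR adjusted p = 0.0397). RpL37A, a protein distinct from that of the similarly named RpL37a, was at 766, 660 and 635 CPM in virgin and 515, 439 and 459 CPM in mated libraries (1.46-fold lower, edgeR adjusted p = 0.0480). In both genes the 3 mated libraries were close together and below all virgin libraries. RpL37a itself had a log2 fold change of -0.45 and did not pass (edgeR adjusted p = 0.132).

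In the small subunit, RpS13 and RpS27A passed. RpS13 was at 1078, 1000 and 995 CPM in virgin and 790, 634 and 689 CPM in mated libraries (1.45-fold lower, edgeR adjusted p = 0.0480). RpS27A was at 1412, 1229 and 1335 CPM in virgin and 968, 883 and 908 CPM in mated libraries (1.44-fold lower, edgeR adjusted p = 0.0434). Neither gene overlapped between groups. The calls of all 7 genes depended on single libraries: 1 member passed without virgin 1, without virgin 2 or without virgin 3, 9 without mated 1, and 0 without mated 2 or mated 3. Calls over all tested genes dropped too, with 0.573% to 1.13% called lower in these fits against 1.63% with all libraries. RpL41 passed in 3 of these 6 fits, RpL27 in 2, RpL5 and RpS13 in 1 each, and RpL21, RpL37A and RpS27A in 0, while all 7 kept a negative log2 fold change in each of them.

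**Figure D2:**
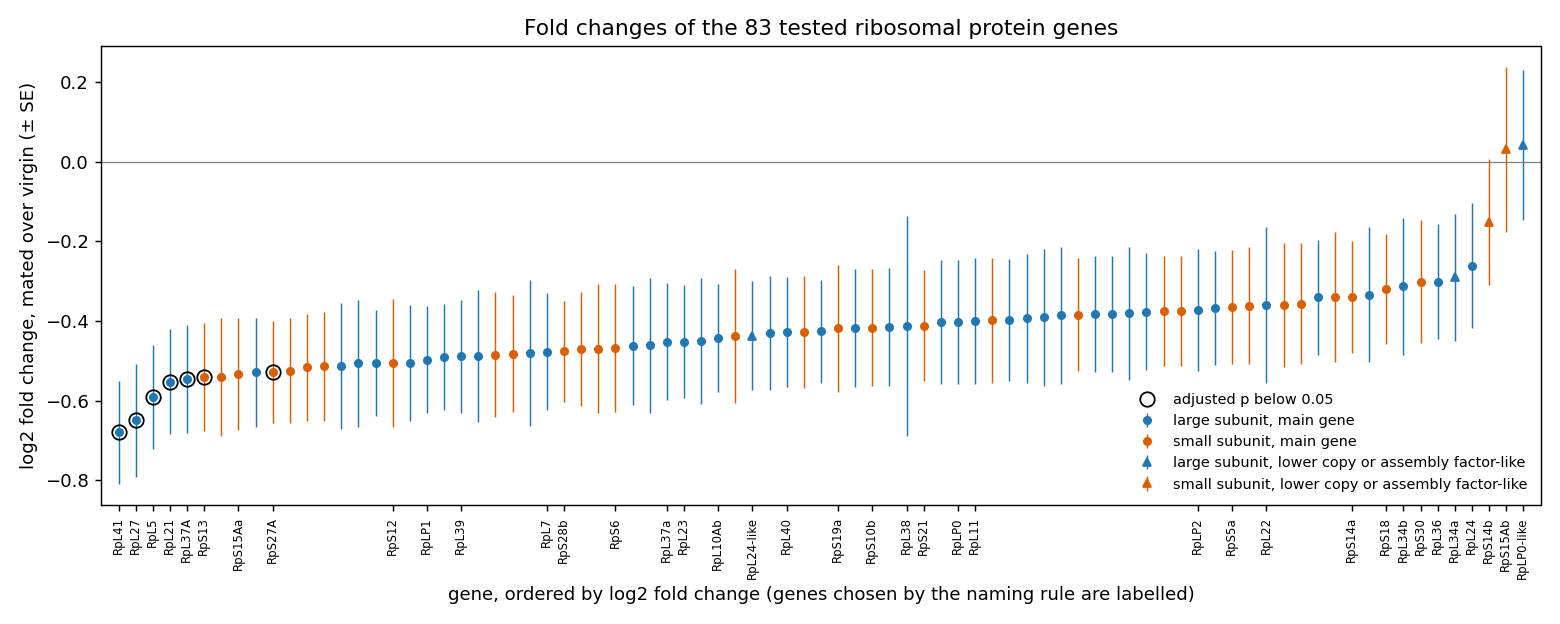
Log2 fold change (mated over virgin, y axis) of the 83 tested members, ordered from most negative to most positive and labelled where the gene was chosen by the naming rule, with standard errors as bars, colour for the subunit and triangles for lower copies and assembly factor-like genes. The 7 circled genes passed the test, and only RpS15Ab and RpLP0-like lie above 0. Error bars of the circled genes overlap those of many genes that did not pass, but the bars include movement that the genes share.

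At the other end of the main genes, the least negative log2 fold changes were those of RpL24 (-0.26), RpL36 (-0.30), RpS30 (-0.30), RpL34b (-0.31) and RpS18 (-0.32). RpL24, which lies at the interface of the subunits, had a mean of 628 ± 74.0 CPM in virgin against 525 ± 89.7 CPM in mated samples (SD, n = 3 each; edgeR adjusted p = 0.445). Mated 1, at 626 CPM, was above virgin 2 and virgin 3 for this gene. None of these 5 genes passed. Their size changed with the library left out. The log2 fold change of RpL24 was -0.14 without virgin 1, -0.16 without mated 2 and -0.41 without mated 1. That of RpL34b was -0.19 without virgin 1 or mated 2 and -0.49 without mated 1, and that of RpS30 -0.46 without mated 1. The median of the tested members moved the same way, to -0.32, -0.36 and -0.54 without virgin 1, mated 2 and mated 1. With the main genes' median subtracted, RpL24 (0.16), RpS30 (0.12) and RpS18 (0.11) were higher in mated samples without overlap. RpL36 (0.12) and RpL34b (0.11) were higher with overlap.

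The stalk of the large subunit, which recruits the GTPases that drive translation, had 4 members listed with its base and a median log2 fold change of -0.39. RpLP1 was at -0.50 (edgeR adjusted p = 0.0681), RpLP0, which anchors the stalk, at -0.40 (0.206) and RpLP2 at -0.37 (0.240). RpL11, the partner of RpL5 at the 5S RNA, was at -0.40 (edgeR adjusted p = 0.217). The 8 genes of the exit tunnel had a median of -0.41, and 0 of them passed.

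The 14 genes listed for the head of the small subunit had a median log2 fold change of -0.42, and RpS27A alone passed among them. RpS12, which in flies takes part in the elimination of cells with an incomplete ribosomal gene set, was at -0.51 (edgeR adjusted p = 0.125). RpS6, the substrate of S6 kinase, was at -0.47 (edgeR adjusted p = 0.154). Of the 3 genes made as fusions to ubiquitin or a ubiquitin-like protein, RpS27A passed, while RpL40 was at -0.43 (0.132) and RpS30 at -0.30 (0.358). The pair outside the symbol rule had similar values, with sta at -0.52 (edgeR adjusted p = 0.131) and Rack1, a scaffold for signalling proteins on the ribosome, at -0.43 (0.226).

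Large and small subunit genes had near-identical medians. The 47 large subunit main genes had a median log2 fold change of -0.43, and 5 of them fell; the 31 small subunit main genes had a median of -0.43, and 2 fell. The ratio of large to small subunit counts was 1.65, 1.66 and 1.60 in virgin and 1.61, 1.62 and 1.62 in mated libraries, with overlapping groups and means of 1.64 ± 0.0314 and 1.62 ± 0.00735 (SD, n = 3 each).

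Position and gene structure gave small differences in the median. Main genes on chromosome 2L had a median log2 fold change of -0.48 (17 genes, holding 5 of the 7 calls), those on 3L -0.45 (14), on X -0.42 (13), on 3R -0.41 (16) and on 2R -0.40 (17); RpS3A, on chromosome 4, was at -0.43. The 27 main genes with small nucleolar RNAs in their introns, 67 in all, had a median of -0.40, and the other 51 a median of -0.45. Across the 78 genes, Spearman's rho of the log2 fold change was -0.157 with the mean level and 0.160 with exon length; these genes share the same 6 libraries and are not independent.

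The block also moved between libraries of the same group. Virgin 1 was the highest of the 6 libraries for 73 of the 78 main genes, and virgin 3 the lowest virgin library for 64. Among mated libraries, mated 1 was the highest for 75 genes, mated 2 the lowest for 64 and mated 3 for the remaining 14. Relative to each gene's mean over the 6 libraries, the median log2 level was 0.36, 0.23 and 0.07 in virgin 1 to 3 and -0.01, -0.35 and -0.28 in mated 1 to 3.

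The median main gene thus stood 1.22-fold higher in virgin 1 than in virgin 3 and 1.27-fold higher in mated 1 than in mated 2, while virgin 3 and mated 1, the nearest libraries of opposite groups, were 1.05-fold apart. For 52 of the 78 genes virgin 3 was above mated 1, and for 77 the lowest virgin library was above both mated 2 and mated 3. Mated 2 was the highest mated library for 3 genes, RpL15, RpS3A and RpL38, and in each of them virgin 2 was the lowest virgin library. RpL15 was at 1257, 974 and 1133 CPM in virgin and 872, 936 and 774 CPM in mated libraries. RpS3A was at 1608, 1289 and 1365 CPM in virgin and 1080, 1129 and 960 CPM in mated libraries. RpL38 left the pattern most, with 393, 196 and 288 CPM in virgin and 198, 287 and 174 CPM in mated libraries. In RpL38, mated 2 was thus close to virgin 3 and virgin 2 close to mated 1. Its standard error, 0.28 on the log2 scale, was the largest of the main genes, and its log2 fold change of -0.41 became -0.11 without virgin 1, -0.27 without mated 3, -0.63 without virgin 2 and -0.65 without mated 2.

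**Figure D3:**
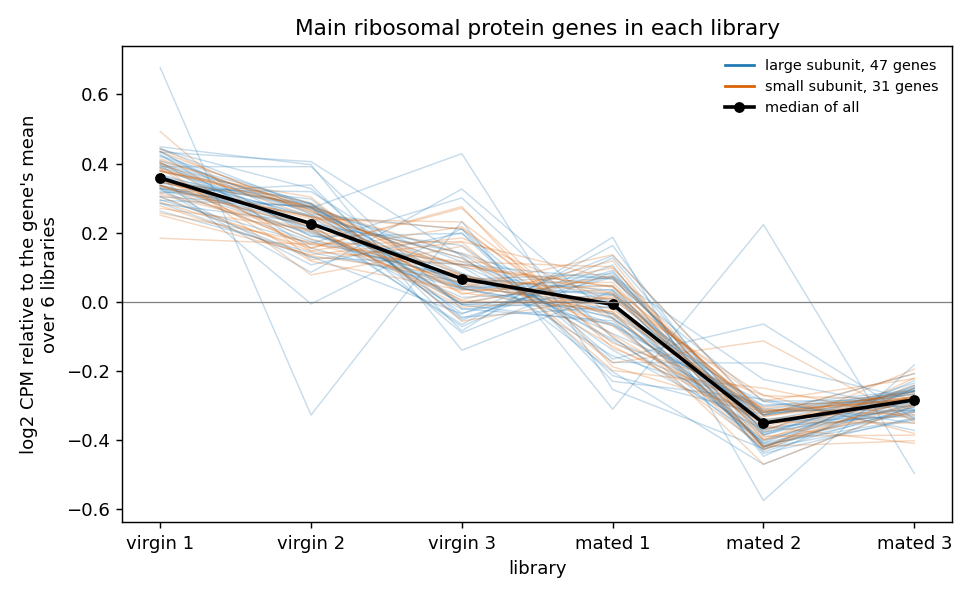
Level of the 78 main genes in each library (x axis) as log2 CPM relative to the gene's own mean over the 6 libraries (y axis); each thin line joins the values of 1 gene, coloured by subunit, and the black line is the median. The libraries have no order within a group; the lines run together, from a median of 0.36 in virgin 1 to -0.35 in mated 2, with virgin 3 and mated 1 close to each other.

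As a share of all gene counts, the members took 9.52%, 9.29% and 8.54% in virgin and 6.04%, 5.42% and 5.40% in mated libraries. The means were 9.12 ± 0.516% and 5.62 ± 0.361% (SD, n = 3 each), and the groups did not overlap. This 1.62-fold difference in share is larger than the 1.36-fold difference in summed CPM, because the CPM values use library sizes scaled by trimmed mean of M values (TMM). Proteases of the Jonah family, enzymes secreted into the gut, took 8.59 ± 0.769% of the counts in virgin and 15.8 ± 0.908% in mated libraries. With these genes left out of the total, the members' share was 9.98 ± 0.645% in virgin and 6.68 ± 0.480% in mated libraries.

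Lower copies and assembly factor-like genes contributed little. Only 5 of the 14 had enough counts to be tested, and 0 of these 5 passed. They made up 0.507 ± 0.0188% of the members' counts in virgin and 0.586 ± 0.0315% in mated libraries. In STAR's gene counts a read that maps to several places is assigned to no gene, so near-identical copies may be under-counted and their levels are uncertain.

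RpS14a and RpS14b, which encode the same protein, were the most evenly used pair. RpS14b was at 192, 171 and 148 CPM in virgin and 183, 128 and 149 CPM in mated libraries, with overlapping groups and a log2 fold change of -0.15 (edgeR adjusted p = 0.678), which became -0.023 without virgin 1, -0.035 without mated 2 and -0.30 without mated 1. Per kb it reached 61.0% of RpS14a, whose log2 fold change was -0.34 (0.238). RpL34a stood at 36.2% of RpL34b per kb, with 122 CPM in virgin and 100.1 CPM in mated samples on average and a log2 fold change of -0.29, or -0.19 without mated 2 and -0.47 without mated 1.

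RpL24-like, the relative of a yeast factor that holds the place of RpL24 in the maturing subunit, was at 86.7, 89.2 and 76.6 CPM in virgin and 70.9, 54.3 and 61.4 CPM in mated libraries. Its groups did not overlap, but the log2 fold change of -0.44 did not pass (edgeR adjusted p = 0.121). The remaining pair of tested genes had log2 fold changes near 0. RpS15Ab was at 19.9, 20.9 and 26.5 CPM in virgin and 29.9, 19.7 and 19.0 CPM in mated libraries, or 0.03 on the log2 scale. RpLP0-like, the relative of a yeast factor that precedes RpLP0, was at 16.8, 24.9 and 24.4 CPM in virgin and 22.1, 20.6 and 25.5 CPM in mated libraries, or 0.04. The signs of both depended on the setting.

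The log2 ratio of copy to main gene was compared by an exact two-sided permutation test over libraries, for which 3 against 3 cannot go below 0.1. It was higher in mated samples by 0.53 for RpS15Ab, 0.46 for RpLP0-like, 0.19 for RpS14b and 0.02 for RpL34a, and it differed by -0.18 for RpL24-like. In all 5 pairs the groups overlapped. The exact p was 0.7 for RpL34a and 0.2 for the other 4, or 0.7 and 0.25 after Benjamini-Hochberg adjustment over the 5 pairs.

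**Figure D4:**
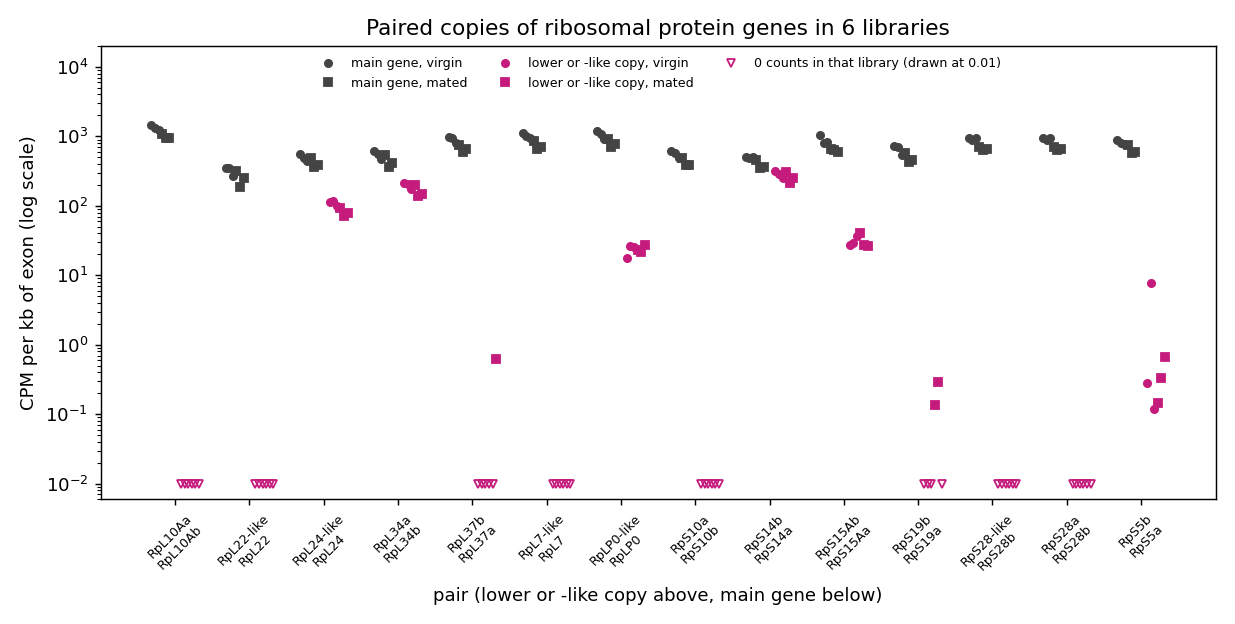
Level per kb of exon (log scale, y axis) of each lower or -like copy and its main gene in the 6 libraries (x axis, 14 pairs); circles are virgin and squares mated libraries, and open triangles mark libraries with 0 counts. RpS14b comes closest to its main gene, at 61.0%, and 6 copies have no count in any library.

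Of the 9 members below the count filter, RpL10Aa, RpL22-like, RpL7-like, RpS10a, RpS28-like and RpS28a had 0 counts in all 6 libraries, which allows up to 0.0220 CPM over the 6 libraries together (3 counts; counting error only). Reads of RpL7-like could not be assigned, since 98.8% of its exon bases are shared with CG34164 on the same strand. The limit thus does not apply to RpL7-like. RpL37b had 5 counts, all in mated 3. RpS19b had 2 counts in mated 1 and 3 in mated 2.

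RpS5b, a copy of RpS5a known for its expression in the female germline, had 8, 233 and 2 counts in virgin 1 to 3 and 3, 5 and 12 counts in mated 1 to 3. Virgin 2 stood apart, at 7.28 CPM, where RpS5b made up 0.652% of the counts of the pair (exact 95% interval 0.571% to 0.741%). In the other 5 libraries it made up 0.0103% to 0.0767%. RpS5a was at 1238, 1110 and 1081 CPM in virgin and 1033, 806 and 824 CPM in mated libraries, with no such rise in virgin 2.

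Germline transcripts were high in the same library. The oocyte gene osk had 725 counts in virgin 2, 2 in mated 2 and 0 in the other 4 libraries. The germline gene nos had 192 counts in virgin 2, 4 in mated 2 and 0 elsewhere, and vas had 68 in virgin 2 and 0 to 16 in the others. Without virgin 2, the median log2 fold change of the tested members was -0.42. In that fit 1 member fell at an adjusted p below 0.05, against 0.841% of all tested genes.

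**Figure D5:**
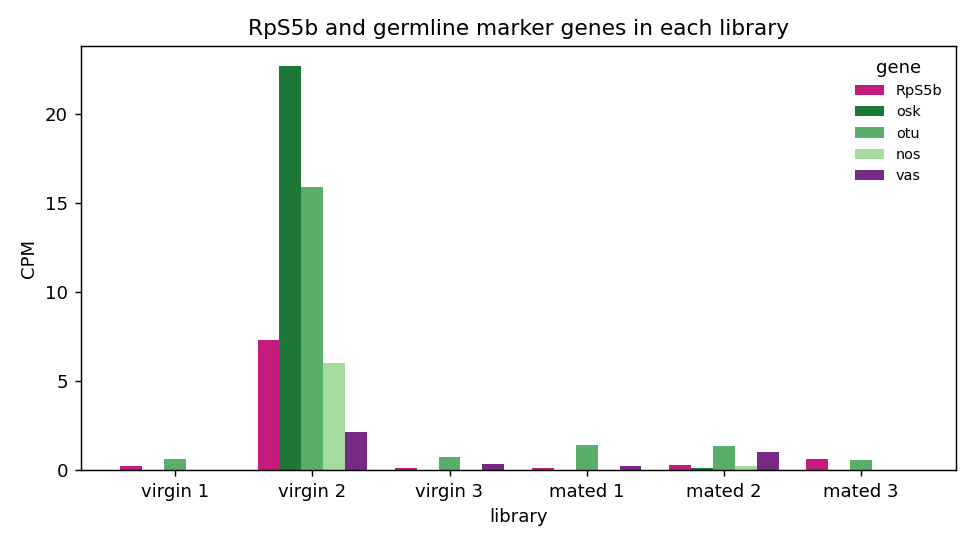
Level in CPM (y axis) of RpS5b and of the germline markers osk, otu, nos and vas in each of the 6 libraries (x axis). All 5 genes are highest in virgin 2, where RpS5b reaches 7.28 CPM and osk 22.7 CPM.

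Other genes of the translation machinery were described by the same fit, and their difference from the ribosomal protein genes was not tested. Of 12 translation factors, 1 fell, 0 rose and 11 did not pass. Their median log2 fold change was -0.28, and all 12 values were negative. Rack1, given above as a protein of the small subunit, was also counted in this list. The gene that fell was eEF1alpha1, which carries aminoacyl-tRNA to the ribosome. It was at 9995, 9530 and 8431 CPM in virgin and 6472, 5694 and 5973 CPM in mated libraries, without overlap (log2 fold change -0.62, edgeR adjusted p = 0.0254). It passed in 2 of the 6 fits that left out a library, those without virgin 3 and without mated 1. Tctp, whose mRNA in mammals carries the same 5′ terminal sequence as those of ribosomal proteins, was at -0.47 (edgeR adjusted p = 0.0714).

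Of 13 regulators, 2 fell, 0 rose and 11 did not pass, with a median log2 fold change of -0.10. Thor, the fly 4E-BP, a translation inhibitor controlled by TOR, was at 444, 424 and 334 CPM in virgin and 227, 231 and 294 CPM in mated libraries, without overlap (log2 fold change -0.68, edgeR adjusted p = 0.0356). The gene larp, whose mammalian relative LARP1 binds the mRNAs of ribosomal proteins, fell from 241 ± 22.0 to 163 ± 15.3 CPM (log2 fold change -0.56, edgeR adjusted p = 0.0397). With the replicate number as a block, Thor (edgeR adjusted p = 0.0755) and larp (0.0718) no longer passed. Thor passed in 2 of the 6 fits without a library, those without virgin 3 and without mated 3, and larp in 0; larp did not pass with relative log expression scaling either (edgeR adjusted p = 0.0571). Myc, which in flies activates ribosome production, was at -0.63 and did not pass (edgeR adjusted p = 0.0631).

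Of 15 genes for ribosome assembly, 0 passed in edgeR in either direction, and 3 had an unadjusted p below 0.05 and a lower level; their median log2 fold change was -0.29. The 3 were Ns1, RIOK2 and Non1, at -0.69, -0.64 and -0.44. Mitochondrial ribosomal proteins form a separate ribosome inside the mitochondrion, which resembles that of bacteria. Of their 73 genes 72 were tested, 0 passed in edgeR, and 1 had an unadjusted p below 0.05 in each direction. Their median log2 fold change was 0.01, with 32 negative and 40 positive values.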

How the data were processed

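Per the labels, TRIzol was used to extract RNA, and a stranded Illumina TruSeq mRNA kit to make the libraries. Build dm6, STAR, DESeq2 1.42.0 and CASAVA 1.8.4 were used, per the submitters' processing notes; roles, the STAR version and the annotation release are not given in the sources used here. Each file that the authors deposited holds raw read counts per gene as STAR writes them, in 3 columns (unstranded, forward and reverse), with no normalization seen in the values. The reverse-strand column was used, and the 4 summary rows were left out of every total and test: of a library's reads, those unmapped made up 5.47% to 12.8%, multi-mapping reads 4.31% to 7.67%, reads in no gene 4.82% to 8.93% and ambiguous reads 1.15% to 1.28%.

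The main test was the two-sided glmQLFTest of edgeR 4.0.16 (R 4.3.3), after filterByExpr, TMM scaling and robust glmQLFit with no term other than group, with Benjamini-Hochberg adjustment over 8607 genes and a threshold of 0.05. Library factors were 1.04 to 1.13 in virgin and 0.860 to 0.965 in mated samples, and the common biological coefficient of variation was 0.291. Levels are CPM on TMM-scaled sizes, with the SD over the 3 libraries of a group. Intervals and floors cover counting error only.

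Positions and exon lengths come from the Ensembl annotation of the assembly that dm6 holds; all 92 members and 17059 of 17116 symbols matched. The members and gene lists were chosen with earlier results of these data known, so lists are described by counts and medians only. Genes named are those that passed, the 5 main genes at each end of level per kb and of fold change, every copy with its main gene, a short list of members with known roles, and up to 3 genes with the smallest p from each other list. RpS3A, RpL15, the cell type markers and CG34164 fall outside this rule and were named after their values were seen. In each pair the lower copy was set by mean CPM over all libraries.

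Whether the pools came from separate cultures is not in the labels; p-values thus measure only how far these samples spread, which may be technical. Libraries of a group differed by more than sampling noise (chi-square per degree of freedom 23.3 to 78.5). The pipeline was also run on simulated counts in which genes varied independently. That run does not cover movement that genes share between libraries. Alternatives were relative log expression, upper-quartile and library-size scaling, TMM factors computed without the members, all genes kept, a minimum of 1 CPM in at least 3 libraries, limma-voom (limma 3.58.1), DESeq2 1.42.0, the unstranded column, the replicate number as a block, a threshold of 0.01 and leaving out each library in turn.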

Additional observations from a re-analysis of the deposited data

Results flagged for a closer look

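The forward-strand column, which the comparisons did not use, held 0.371 ± 0.0658% of the counts at the members in mated and 0.208 ± 0.0345% in virgin libraries (SD, n = 3 each). It was singled out as signal outside the main measurement that was above the level in virgin samples. Over all genes the forward share was larger, at 2.18% to 2.32% in virgin and 1.86% to 2.10% in mated libraries. The members' percentage also depends on their reverse-strand counts, whose share of all counts was lower in mated samples. In CPM, forward-strand counts at the members overlapped between groups, at 161, 171 and 185 in virgin and 276, 239 and 174 in mated libraries. Of these counts, 45.9% lay at the 25 members that overlap an exon of a gene on the opposite strand.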

How the results depend on the processing

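The median log2 fold change of the tested members was negative under every alternative run. Library size alone moved the median of all tested genes from -0.05 to -0.30. It moved those of all tested members, large subunit and small subunit main genes to -0.67, -0.68 and -0.67. The split of all calls moved too, from 140 lower and 213 higher to 726 lower and 146 higher with library size alone. The members' median stayed -0.38 from that of all genes under TMM, relative log expression, upper-quartile and library-size scaling. A change of scaling shifts all genes by nearly the same amount, so this difference was bound to stay. The number of members that fell, 7 as reported, was 3 with relative log expression (3 large, 0 small), 14 with upper-quartile scaling (7 small), 79 with library size alone (48 large, 31 small), 3 with the filter of 1 CPM (3 large, 0 small), 32 in DESeq2 (20 large, 12 small), 5 with the unstranded column (1 small) and 0 at a threshold of 0.01 (0 large, 0 small). Leaving out a library gave 0 to 9 (0 to 5 large, 0 to 4 small), and 0 rose in any setting. With the replicate number as a block, 9 members fell, against 1.12% of all tested genes. Same-numbered samples did not deviate together (correlations -0.155, -0.0496 and -0.0272), so the numbers were not taken as pairs. RpLP0-like (0.04) turned to -0.22 with library size alone, -0.087 without virgin 1 and -0.045 without mated 3 (range over the libraries left out -0.087 to 0.15). RpS15Ab (0.03) turned to -0.24 with library size alone and to -0.017, -0.0052 and -0.21 without virgin 1, virgin 2 and mated 1 (range -0.21 to 0.19). The causes were not tested. Low counts kept the 9 untested members from the test, with 263 counts or fewer over all libraries. More depth would not help for RpL7-like, whose exon bases are shared with CG34164. RpS5b had 233 of its 263 counts in virgin 2.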
